A study of Homo sapiens with 36 samples.

Results

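INSM1, ST18, MYT1, MYT1L, REST, RCOR1, RCOR2 and RCOR3 encode the neuroendocrine zinc finger repressors and the REST corepressor scaffolds examined here. They were taken by name from the authors' table of normalized counts, in which all 8 were found among 19014 genes, each on 1 row. All are protein-coding, and INSM1 and MYT1 lie on chromosome 20, MYT1L on 2, REST on 4, RCOR1 on 14, RCOR2 on 11 and RCOR3 on 1 (GENCODE, GRCh38). The cells were H446, a long-used human line of small-cell lung cancer assigned by its label to the SCLC-N subtype, named for the neurogenic transcription factor NEUROD1. Of the 6 clones, clones 3, 10 and 13 carried a guide RNA without a target and served as controls (labelled WT), while clones 12, 15 and 2-1 were NEUROD1 knockouts, all made with NEUROD1 gRNA #297. Every clone was treated with 1 µM JQ1 or with its solvent DMSO for 24 h. JQ1 inhibits the BET bromodomain family by competing with acetylated histones for their binding pocket. The labels name 3 biological replicates per clone and treatment, which gave 36 libraries and 9 per genotype and treatment. All clones came from 1 line and the knockout clones from 1 guide, so differences between genotypes are differences between 3 and 3 clones of H446.

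INSM1 is a marker of neuroendocrine tumours whose SNAG stretch binds the histone demethylase KDM1A. MYT1, MYT1L and ST18 form a family of zinc finger factors of neurons and endocrine cells, and MYT1L is known for repressing genes of other lineages in neurons. REST does the reverse: in cells that are not neurons it binds RE1 elements of neuronal genes and recruits SIN3 at one end and RCOR1 at the other, and RCOR proteins hold KDM1A and histone deacetylases together.

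The authors' normalized counts (counts per gene scaled by 1 factor for each library) gave back 13282337 to 18890506 whole reads in all libraries but 1. Levels below are normalized counts unless FPKM, which is scaled by gene length, is named. Each is a mean ± SD over 3 clones (n = 3), and the 3 libraries of a clone were averaged first. Replicate 1 of knockout clone 12 with JQ1 stood apart, with 31825795 reads and a summed level of 88483 over 7 lung and blood markers, against at most 2246 in any other library. The list held 12 markers, but SFTPB, SCGB1A1, HBB, HBA2 and PECAM1 are absent from the normalized counts, so no haemoglobin is in the sum. COL1A1 is in it, and stood at 342 ± 154 in knockout clones with JQ1 without that library. Results with JQ1 in knockout clones include the library that stood apart unless stated, and some of them are also given without it. NEUROD1 stood at 5328 to 6337 in the control clones with DMSO and at 0 to 5.25 in the knockout clones. Of the markers that define neuroendocrine small-cell lung cancer, SYP, a vesicle protein, stood at 2313 ± 175 in control and 99.2 ± 35.8 in knockout clones with DMSO, and NCAM1, an adhesion molecule, at 8340.2 ± 2233 and 3729 ± 1203. Both were thus present in the control clones. Fold changes are differences of log2(normalized count + 1) with their standard error (SE), and adjusted p-values come from limma across 15819 genes with a threshold of 0.05. In bulk RNA, fewer cells that express a gene and less RNA per cell cannot be told apart.

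On the FPKM scale the 8 genes differed widely in level within the control clones with DMSO. INSM1 was highest, at 69.0 ± 13.4 FPKM. RCOR3 (24.8 ± 0.816 FPKM) and RCOR1 (24.7 ± 1.33 FPKM) followed and did not differ beyond their spread. ST18 came next at 17.2 ± 0.989 FPKM. MYT1L (11.9 ± 3.94 FPKM) and RCOR2 (9.39 ± 3.61 FPKM) lay within each other's spread, above REST at 2.65 ± 0.709 FPKM and MYT1 at 1.32 ± 0.802 FPKM. In the knockout clones with DMSO the order was another one. RCOR3 (28.5 ± 5.39 FPKM) and RCOR1 (21.6 ± 4.27 FPKM) lay at the top and within each other's spread, and REST followed with 8.59 ± 1.25 FPKM. RCOR2 had 2.67 ± 1.51 FPKM, INSM1 1.02 ± 0.113 FPKM and MYT1 0.160 ± 0.149 FPKM. MYT1L was at 0.00333 ± 0.00577 FPKM and ST18 at 0.

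**Figure D1:**
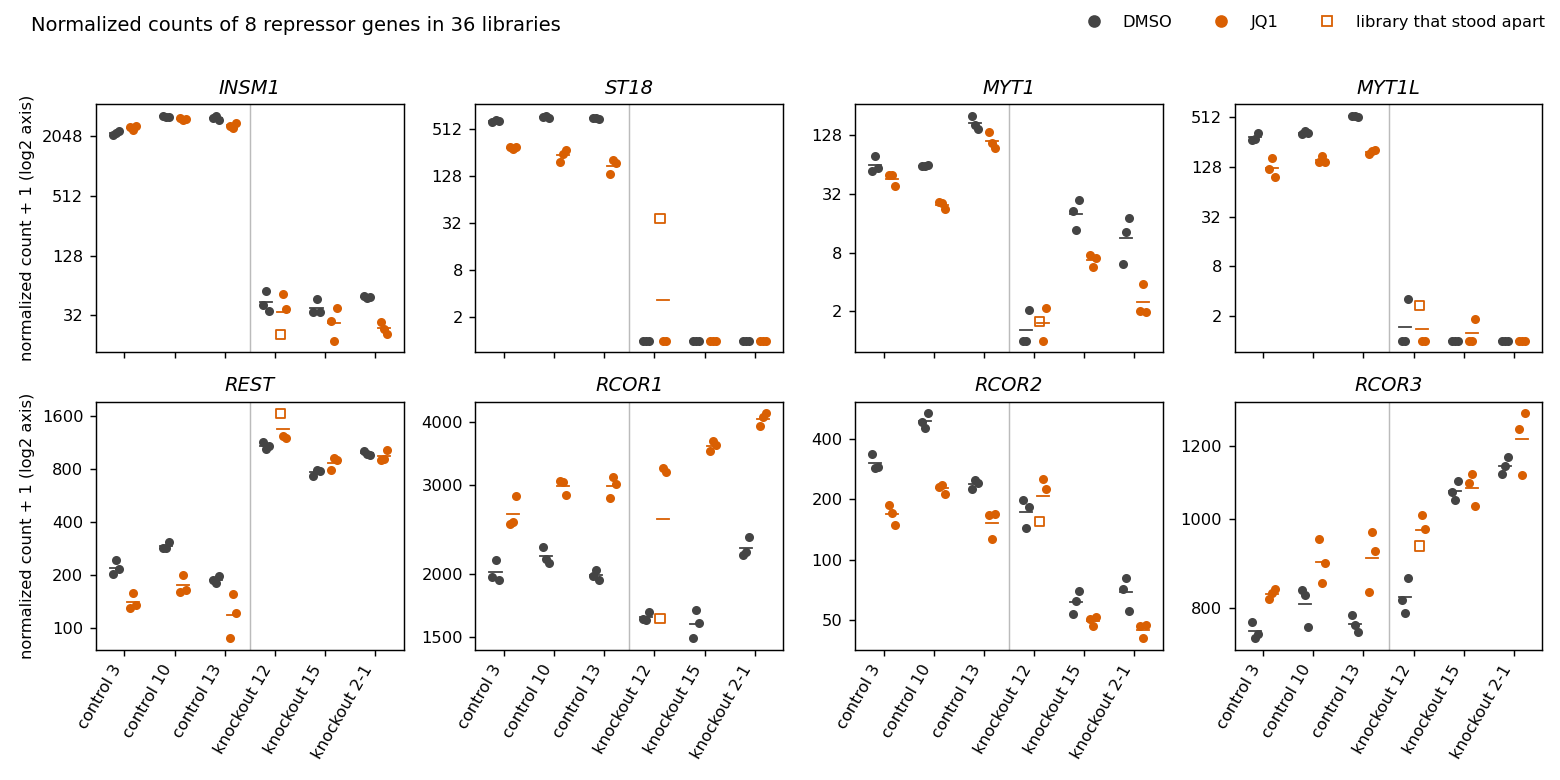
Normalized count + 1 (log2 axis) of the 8 genes in each library, by clone; points are libraries, short lines the mean of 3 libraries on the log2 scale, and the open square the library that stood apart. INSM1, ST18 and MYT1L of every knockout library lie below every control library, and REST of every knockout library lies above.

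With DMSO alone, the question was which of these repressors differed where NEUROD1 was lost. Of the 8 genes, INSM1, ST18, MYT1L and RCOR2 were lower in knockout clones (4 genes, against 6.23% of all genes tested) and REST was higher (1 gene, against 6.32%). MYT1, RCOR1 and RCOR3 did not pass the test. The median log2 fold change of the 8 was -2.79, beside 0.01 over all genes, and it stays at that value with ST18 taken at its bound, since ST18 is the lowest of them.

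INSM1 ranged from 2065 to 3260 over the 9 control libraries, with a median of 3069, and from 33.4 to 55.6 over the knockout libraries, with a median of 45.7. The groups did not overlap, and no knockout clone came near the lowest control library. The clone means were 2194 in control clone 3, 3209 in clone 10 and 3093 in clone 13, and 43.4, 37.5 and 47.9 in knockout clones 12, 15 and 2-1. INSM1 thus fell from 2832 ± 555 to 42.9 ± 5.19 (log2 change of -6.01, SE 0.21, adjusted p = 3e-05, limma). Unlike ST18 and MYT1L it kept a residual level: 378 reads were counted over the 9 knockout libraries, at least 32 in each.

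ST18 ranged from 627.5 to 747.6 in the control libraries, with a median of 698, and had no read in any of the 9 knockout libraries. Set against 3 reads, the floor for a group with none, it was at least 2026-fold lower (adjusted p = 2.28e-05, limma). The level in the control clones was 686 ± 42.8, and its highest clone exceeded its lowest by 0.18 on the log2 scale, against 0.55 for INSM1 and 0.86 for MYT1L. Bounds and intervals of this kind cover counting error only.

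MYT1L ranged from 268.9 to 535.3 in the control libraries, with a median of 334, and had 2 reads in all 9 knockout libraries, both in 1 library of clone 12. Its level was 385 ± 126 in control clones, and the ratio to the knockout clones was 1717 with a 95% interval of 475 to 14182 (adjusted p = 0.000104, limma). Control clone 13 stood above the others with 528 on average, against 293 in clone 3 and 334 in clone 10.

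MYT1, the least abundant of the family, ranged from 54.0 to 200.7 in the control libraries, with a median of 61.8, and from 0 to 26.4 in the knockout libraries, with a median of 12.1. The groups did not overlap, but the clones spread widely on both sides. Control clone 13 stood at 170 and the other control clones at 63.0 and 60.9. Among knockout clones, clone 15 kept 19.8 and clone 2-1 kept 11.4, while clone 12 had 1 read in 3 libraries. The difference from 97.9 ± 62.2 to 10.5 ± 9.76 did not pass the test (log2 change of -3.72, SE 1.04, adjusted p = 0.0646, limma). It passed in 6 of 21 alternatives, among them DESeq2 (adjusted p = 0.00852), a pseudocount of 8 (adjusted p = 0.0301), FPKM (adjusted p = 0.0430) and leaving out knockout clone 12 (log2 change of -2.54, adjusted p = 0.0416, limma).

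REST went the other way. It ranged from 179.8 to 310.2 in the control libraries, with a median of 215, and from 731 to 1146 in the knockout libraries, with a median of 980.3. Every knockout library lay above every control library. The clone means were 221, 293 and 188 in control clones 3, 10 and 13, and 1091, 769 and 985 in knockout clones 12, 15 and 2-1. REST rose from 234 ± 54.0 to 949 ± 164 (log2 change of 2.03, SE 0.23, adjusted p = 0.00281, limma). The counts are per gene and hold every spliced form of REST, full length or truncated.

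The RCOR genes, whose proteins form the scaffold between REST or SNAG proteins and KDM1A, did not move together. RCOR2, the form known from stem cells and neural progenitors, ranged from 223.6 to 535.8 in the control libraries, with a median of 291, and from 52.9 to 197.9 in the knockout libraries, with a median of 70.9. The groups did not overlap. Within the knockout, clone 12 (174) stood well above clones 15 (61.1) and 2-1 (68.7), and among the control clones it was highest in clone 10 (491). RCOR2 fell from 344 ± 131 to 101 ± 63.3 (log2 change of -1.86, SE 0.47, adjusted p = 0.0461, limma). That call lies near the threshold and was lost in 9 of 21 alternatives, among them edgeR (adjusted p = 0.0730) and leaving out any 1 control clone, knockout clone 15 or knockout clone 2-1 (adjusted p = 0.0779 to 0.159, limma).

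RCOR1, the founding CoREST protein, stood at 2058 ± 96.6 in control and 1829 ± 368 in knockout clones with DMSO (log2 change of -0.19, SE 0.17, adjusted p = 0.523, limma). Libraries ranged from 1949 to 2262 with a median of 2037 in the controls and from 1490 to 2369 with a median of 1678 in the knockouts, so the groups overlapped. Knockout clones 12 and 15 lay below every control library and clone 2-1 lay among or above them. RCOR3, the other paralog, stood at 776 ± 27.9 and 1011 ± 168 (log2 change of 0.37, SE 0.16, adjusted p = 0.201, limma). Its libraries ranged from 740.1 to 836 with a median of 766 and from 788.6 to 1167 with a median of 1068. Here clone 12 lay near the control libraries (788.6 to 861.6), and clones 15 and 2-1 lay above all of them.

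Since FPKM is scaled by length, the 3 paralogs could be set against one another as shares of their summed FPKM. RCOR2 made up 15.7% ± 4.50 of RCOR transcripts in the DMSO-treated controls and 5.33% ± 3.74 in the knockouts. The difference was -10.4 percentage points, with no overlap between clones (12.1% to 20.7% against 3.06% to 9.64%; exact permutation p = 0.1, two-sided, the smallest that 3 against 3 clones allow). RCOR3 made up 42.2% ± 2.83 and 53.8% ± 6.02, a difference of 11.6 points with no overlap (exact permutation p = 0.1). The share of RCOR1 was 42.1% ± 1.77 and 40.9% ± 4.48 (exact permutation p = 0.8). With JQ1 the share of RCOR2 was 7.65% ± 1.32 in control and 4.16% ± 4.34 in knockout clones, which overlapped (exact permutation p = 0.4). RCOR1 then held 53.5% ± 2.46 and 56.5% ± 6.56, the largest share of the 3 in every clone. Over these 6 comparisons the Benjamini-Hochberg adjusted values were 0.3 for RCOR2 and RCOR3 with DMSO and 0.72 to 0.8 for the others, and with 3 clones a side none could reach 0.05.

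**Figure D2:**
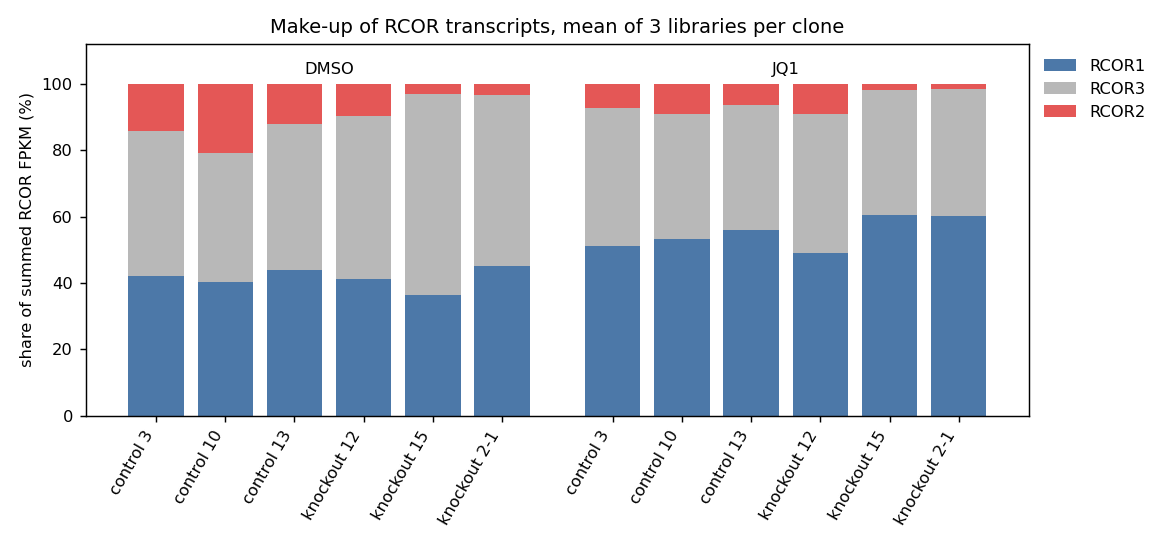
Share of each RCOR paralog in their summed FPKM (percent, stacked bars from 0), by clone with DMSO and with JQ1. Each bar is the mean of the shares in 3 libraries. The RCOR2 share with DMSO is 12.1% to 20.7% in control clones and 3.06% to 9.64% in knockout clones.

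Treated with JQ1, the 2 genotypes stood apart in 5 of the 8 genes. Lower in knockout clones were INSM1, ST18, MYT1 and MYT1L (4 of 8, against 5.59% of all genes) and REST was the 1 gene that was higher (against 6.37%). INSM1 libraries ranged from 2358 to 3100 in control and from 16.8 to 51.5 in knockout clones, with medians of 2594 and 26.5 (log2 change of -6.59, SE 0.21, adjusted p = 1.69e-05, limma). INSM1 therefore stood far apart between genotypes with either treatment.

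ST18 ranged from 134.8 to 292.9 in the control libraries with JQ1. In knockout libraries it had no read but for 63 reads (35.5 normalized counts) in the library that stood apart, which also had the high sum over lung and blood markers. Without that library it was at least 652-fold lower. With it, ST18 passed in limma (adjusted p = 0.000433) but not in edgeR (adjusted p = 0.113) or DESeq2 (adjusted p = 0.0943). The part of RNA from other cells, if any, in this value was not tested.

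MYT1L ranged from 95.04 to 204.9 in the control libraries with JQ1, and had 1 read in the 8 knockout libraries other than that one, a ratio of 1307 (95% interval 234 to 51649). In the test over all libraries its adjusted p was 0.000112 (limma). MYT1 ranged from 21.1 to 136 against 0 to 6.56, with medians of 48.3 and 1.17, and its groups did not overlap. MYT1 was lower at 2.63 ± 2.73 against 60.1 ± 45.8 (log2 change of -4.10, SE 0.75, adjusted p = 0.0159, limma), a call lost without control clone 3 (adjusted p = 0.0511) or clone 13 (adjusted p = 0.0537).

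REST ranged from 86.5 to 200.5 in control and from 794 to 1663 in knockout libraries with JQ1, with medians of 155 and 925. The highest value was that of the library that stood apart, and the next was 1244. REST was higher at 1065 ± 267 against 146 ± 27.4 (log2 change of 2.86, SE 0.24, adjusted p = 0.000599, limma), and the knockout level without that library was 1016 ± 183. RCOR2 with JQ1 was 183 ± 38.5 in control and 101 ± 95 in knockout clones and did not pass (log2 change of -1.22, SE 0.58, adjusted p = 0.226, limma). Clone 12 (211) lay among the control clones (153 to 226), whereas clones 15 (48.8) and 2-1 (43.9) lay below them, and without clone 12 RCOR2 passed (log2 change of -1.93, adjusted p = 0.00995, limma). RCOR1 and RCOR3 did not pass (adjusted p = 0.497 and 0.217, limma).

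Sequence at the starts of these genes is shown because NEUROD1 binds E-boxes. RefSeq promoter windows of 300 bases around a start (GRCh38.p14) were read for MYT1, MYT1L, REST, RCOR1 and RCOR3, and INSM1, ST18 and RCOR2 are named only. Each was searched for the E-box CANNTG, which reads the same on both strands, and for the form CAGATG on both strands, which is also a match of the wider motif. The wider motif stands in 68.68% of 35116 promoters of this length, and the narrower in 14.7%. Of MYT1L, which fell, starts 1 (chr2:2331226-2331525, minus strand) and 4 (chr2:2324296-2324595, minus strand) are printed, those of its starts with the most matches. Also printed are MYT1 (chr20:64164202-64164501, plus strand), its relative, and REST (chr4:56907650-56907949, plus strand), which rose. All printed windows run 5′ to 3′ along the gene's strand, in lower case with every CANNTG in capitals.

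MYT1L start 1: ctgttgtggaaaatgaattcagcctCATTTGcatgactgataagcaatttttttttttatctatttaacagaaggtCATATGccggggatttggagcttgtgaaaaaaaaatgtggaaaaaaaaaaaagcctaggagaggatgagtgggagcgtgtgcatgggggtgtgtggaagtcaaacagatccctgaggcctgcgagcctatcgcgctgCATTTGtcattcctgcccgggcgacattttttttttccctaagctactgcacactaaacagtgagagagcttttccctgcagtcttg
MYT1L start 4: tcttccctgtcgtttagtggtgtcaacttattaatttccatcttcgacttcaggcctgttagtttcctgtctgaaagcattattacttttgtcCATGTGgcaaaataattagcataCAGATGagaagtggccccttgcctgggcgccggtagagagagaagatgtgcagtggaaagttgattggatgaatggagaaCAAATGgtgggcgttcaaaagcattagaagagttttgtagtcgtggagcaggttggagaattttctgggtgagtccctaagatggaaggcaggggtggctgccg
MYT1: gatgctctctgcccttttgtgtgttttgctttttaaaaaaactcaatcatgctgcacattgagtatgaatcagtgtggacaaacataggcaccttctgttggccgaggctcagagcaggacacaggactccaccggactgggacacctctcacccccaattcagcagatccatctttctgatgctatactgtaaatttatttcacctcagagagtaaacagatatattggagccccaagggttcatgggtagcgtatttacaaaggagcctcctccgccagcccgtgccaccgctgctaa
REST start 1: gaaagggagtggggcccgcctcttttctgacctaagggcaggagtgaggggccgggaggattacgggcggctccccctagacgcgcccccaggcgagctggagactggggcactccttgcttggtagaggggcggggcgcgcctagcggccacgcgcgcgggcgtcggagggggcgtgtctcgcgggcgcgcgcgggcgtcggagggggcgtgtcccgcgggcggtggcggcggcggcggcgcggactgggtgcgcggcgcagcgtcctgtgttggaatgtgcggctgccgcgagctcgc

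The MYT1L windows at starts 1 and 4 hold 3 matches each, and 1 of those at start 4 is CAGATG. The window at start 3 holds 1 match, CAGCTG, a word found in 17.95% of promoters, and that at start 2 holds 0. RCOR1 holds 1 match, CAGTTG, and the windows of MYT1, REST and RCOR3 hold 0. These are letters in a window, and no binding was measured.

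JQ1 in the control clones asks which of these genes respond to BET inhibition where NEUROD1 is present. ST18, MYT1L, REST and RCOR2 fell (4 of 8, against 24.9% of all genes that fell) and RCOR1 rose (1 of 8, against 23% that rose). INSM1, MYT1 and RCOR3 did not pass the test. The median log2 fold change of the 8 genes was -0.74, beside -0.01 over all genes.

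ST18 libraries lay at 627.5 to 747.6 with DMSO and 134.8 to 292.9 with JQ1 and did not overlap. It fell from 686 ± 42.8 to 233 ± 57.9 (log2 change of -1.59, SE 0.37, adjusted p = 0.00808, limma). The response of each clone was -1.14 in clone 3, -1.63 in clone 10 and -2.01 in clone 13. The call was lost without clone 10 (adjusted p = 0.0587) or clone 13 (adjusted p = 0.0748), and in DESeq2 (adjusted p = 0.430). It was kept in 19 of 22 alternatives, among them leaving out only the library that stood apart. The 3 losses were seen with that library included. In limma the spread was shared with the knockout clones, where ST18 of clone 12 responded by 1.73 with that library and 0 without. The part of that library in the losses was not tested.

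MYT1L fell from 385 ± 126 to 159 ± 34.1, and libraries with DMSO (268.9 to 535.3) and JQ1 (95.04 to 204.9) did not overlap. All 3 clones fell by like amounts, -1.23, -1.11 and -1.44 (log2 change of -1.26, SE 0.23, adjusted p = 0.00269, limma). INSM1 behaved otherwise: its libraries overlapped (2065 to 3260 with DMSO, 2358 to 3100 with JQ1), and the clones responded by 0.18, -0.09 and -0.25. The INSM1 difference did not pass (log2 change of -0.05, SE 0.14, adjusted p = 0.789, limma). MYT1 stood at 97.9 ± 62.2 and 60.1 ± 45.8 with overlapping libraries, and each clone was lower with JQ1 (-0.47, -1.32 and -0.61). Its difference did not pass (adjusted p = 0.167, limma).

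REST fell by similar steps in the 3 control clones, -0.64, -0.74 and -0.67, from 234 ± 54.0 to 146 ± 27.4 (log2 change of -0.69, SE 0.09, adjusted p = 0.000524, limma). Libraries of different clones overlapped between treatments, while within each clone every JQ1 library lay below every DMSO library. RCOR2 fell in the same manner, from 344 ± 131 to 183 ± 38.5 (clones -0.85, -1.11 and -0.64; log2 fold change -0.87, SE 0.18, adjusted p = 0.00432, limma). RCOR1 rose from 2058 ± 96.6 to 2872 ± 203, and its libraries did not overlap (1949 to 2262 with DMSO, 2519 to 3116 with JQ1; log2 fold change 0.48, SE 0.10, adjusted p = 0.00411, limma). RCOR3 stood at 776 ± 27.9 and 877 ± 43.0 (log2 change of 0.17, SE 0.07, adjusted p = 0.0660, limma). For RCOR3 the direction depends on the unit: on the FPKM scale the log2 change was -0.031 (adjusted p = 0.801, limma).

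In the knockout clones, JQ1 lowered INSM1 and raised RCOR1 (1 of 8 each, against 25.7% of all genes that fell and 23.9% that rose). INSM1 moved from 42.9 ± 5.19 to 28.6 ± 6.57 (log2 change of -0.63, SE 0.14, adjusted p = 0.00698, limma), with overlapping libraries (33.4 to 55.6 and 16.8 to 51.5). The clones responded by -0.34, -0.52 and -1.04, and clone 12 without the library that stood apart by 0.02. RCOR1 moved from 1829 ± 368 to 3447 ± 698 (log2 change of 0.89, SE 0.10, adjusted p = 0.000215, limma). Its lowest JQ1 library, at 1632, was the one that stood apart, and the others lay between 3186 and 4163, above every DMSO library (1490 to 2369).

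MYT1 in the knockout clones stood at 10.5 ± 9.76 with DMSO and 2.63 ± 2.73 with JQ1. Clones 15 and 2-1 were lower with JQ1 by 1.58 and 2.19 on the log2 scale, and clone 12 had at most 1 read per library. The difference did not pass (log2 change of -1.18, SE 0.44, adjusted p = 0.0537, limma) and did without the library that stood apart (adjusted p = 0.0400, limma). REST stood at 949 ± 164 and 1065 ± 267 (log2 change of 0.15, SE 0.09, adjusted p = 0.203, limma). RCOR2 stood at 101 ± 63.3 and 101 ± 95, with clone 12 higher by 0.26 and clones 15 and 2-1 lower by 0.31 and 0.62 with JQ1 (adjusted p = 0.318, limma). RCOR3 stood at 1011 ± 168 and 1091 ± 125 (log2 change of 0.12, adjusted p = 0.192, limma), and at -0.10 on the FPKM scale. ST18 and MYT1L were at or under 3 reads per clone and treatment, apart from the 63 ST18 reads in the library that stood apart, so no response could be read.

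**Figure D3:**
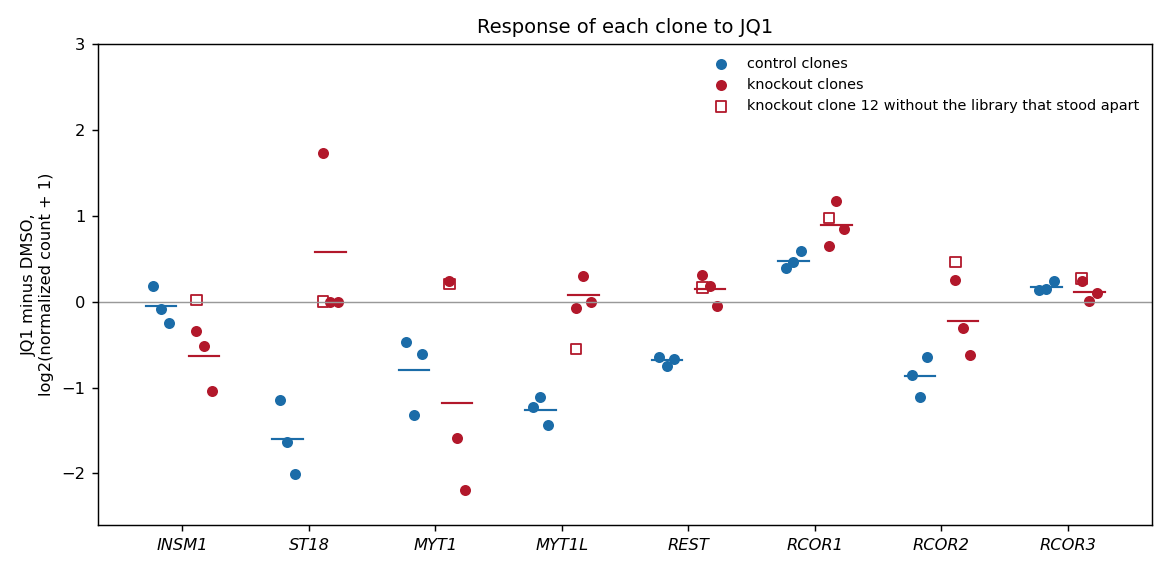
JQ1 minus DMSO response of each clone, as log2(normalized count + 1), for the 8 genes; filled points are clones, short lines the mean of 3 clones, and open squares knockout clone 12 without the library that stood apart. REST responses are -0.64 to -0.74 in control clones and -0.05 to 0.31 in knockout clones.

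Whether a response differed between genotypes was tested in the same model. REST was the 1 gene of the 8 that passed (against 1.55% of all genes higher and 1.55% lower). The REST response was -0.69 in control and 0.15 in knockout clones, a difference of 0.83 (SE 0.13, adjusted p = 0.0257, limma), and no control clone overlapped with a knockout clone. The size moved little over 22 alternatives, from 0.74 to 0.96, but the call was lost in 8 of them. They include leaving out control clone 3, 10 or 13 or knockout clone 15 (adjusted p = 0.0908, 0.142, 0.110 and 0.0887, limma) and edgeR (adjusted p = 0.0738). Among the other genes, ST18 (2.17, adjusted p = 0.0630), MYT1L (1.33, adjusted p = 0.0659), RCOR2 (0.64, adjusted p = 0.176), RCOR1 (0.41, adjusted p = 0.130) and INSM1 (-0.58, adjusted p = 0.146) did not pass in limma. For ST18 and MYT1L the knockout clones had no level from which to fall. Without the library that stood apart, RCOR1 passed (0.52, adjusted p = 0.0270), as did ST18 (1.59, adjusted p = 0.0291, limma), and the 8 genes held 3 calls. MYT1 (-0.38) and RCOR3 (-0.06) differed by less than their standard errors of 0.62 and 0.10.

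Clones of 1 genotype differed among themselves, which bears on every comparison of genotypes. In DMSO, with single libraries as replicates, 7 of 8 genes differed among the 3 control clones (against 63.4% of all genes) and 5 of 8 among the knockout clones (against 78.1%; F test in limma). These p-values measure libraries of these clones only. Among control clones the widest log2 spread was that of MYT1, 1.45 between its highest and lowest clone, followed by RCOR2 with 1.04 and MYT1L with 0.86, and that of RCOR3, at 0.10, did not pass. On the FPKM scale 4 of 8 genes passed. Among knockout clones MYT1 (3.97) and RCOR2 (1.49) varied most, and REST (0.50), RCOR1 (0.50) and RCOR3 (0.47) also differed. INSM1, with a spread of 0.36, did not pass there (adjusted p = 0.353, limma). RCOR2 and MYT1 were at opposite ends in clone 12, which had the highest RCOR2 and the lowest MYT1 of the knockout clones.

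Genes whose profile over the 12 clone and treatment means was most like that of a repressor were found by the root mean square gap between centred log2 profiles, among 12363 genes with a mean of at least 50. The points share clones and libraries, and the gap is a description. LHFPL4 (gap 0.46) and the noncoding RP11-531A24.3 (0.40) and RP11-58B17.2 (0.50) were nearest to INSM1. LHFPL4 stood at 161 ± 38.6 in control and 2.08 ± 0.463 in knockout clones with DMSO. ST18 was nearest to NTRK3, the receptor of neurotrophin 3 (0.55), to MYT1L (0.63) and to CA10 (0.64). NTRK3 stood at 1249 ± 388 and 0.113 ± 0.195. MYT1L was nearest to ZNF423 (0.41), CLVS1 (0.42) and FAM181B (0.56). MYT1 had no gene as near (PCDH8 0.71, DGCR5 0.74 and KCNH8 0.76). REST was nearest to ASAP3 (0.28), ISY1-RAB43 (0.34) and GNG12, a G protein subunit (0.39). ASAP3 stood at 468 ± 43.5 in control and 2238 ± 91.5 in knockout clones with DMSO. RCOR2 was nearest to PWAR6 (0.37), to the cell cycle kinase CDK6 (0.38) and to PIR (0.42).

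Genes described as direct targets of REST through RE1 elements were read beside REST, from a list of 24 of which 20 were tested. GRIN1, GLRA1 and CALB1 are absent from the normalized counts. TUBB3 was left out because its name stands there on more than 1 row, not for a low level. It had 140 ± 24.4 FPKM in knockout clones with JQ1, without the library that stood apart, and is in none of the counts below. With DMSO, 14 were lower (against 6.23% of all genes) and 1 was higher (against 6.32%) in knockout clones, and the median log2 fold change was -5.14 beside 0.01 over all genes. SYT4, a vesicle synaptotagmin, fell from 4131 ± 604 to 0.809 ± 0.423 (log2 change of -11.25, SE 0.29, adjusted p = 2.03e-05, limma). STMN2, which acts on neuronal microtubules, UNC13A, which primes vesicles, and CHGA, a granule protein, fell by 10.69, 7.68 and 7.63 on the log2 scale. CHRM4, a muscarinic receptor, was the exception and rose from 44.7 ± 9.21 to 120.03 ± 41.4 (log2 change of 1.38, SE 0.34, adjusted p = 0.0458, limma). BDNF, a neurotrophin, stood at 3.54 ± 3.24 in control and 122 ± 144 in knockout clones and did not pass (adjusted p = 0.226, limma). SCG2, SNAP25, SCN2A and SLC18A3 were lower on average and did not pass either.

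With JQ1, 18 of the 20 RE1 genes were lower in knockout clones (against 5.59% of all genes; median -5.40, beside 0.01 over all genes), with and without the library that stood apart. CHRM4 and BDNF were the other genes, with CHRM4 at 57.8 ± 24.1 and 84.8 ± 18.3. Within a genotype, 3 of the 20 rose and 4 fell with JQ1 in control clones (against 23% and 24.9% of all genes), and 5 rose and 4 fell in knockout clones (against 23.9% and 25.7%), so their shares were near those of all genes or below them. VGF, a secreted neuronal protein, rose with JQ1 from 488 ± 130.1 to 3071 ± 1091 in control clones (log2 change of 2.60, SE 0.16) and stood at 24.1 ± 12.0 and 36.2 ± 18.3 in knockout clones. SCN2A, a sodium channel, fell in both (log2 fold changes -2.09 and -2.14). The response differed between genotypes for SYN1 and CHGA (by 1.85 and 1.01) and for VGF, SCG2 and SNAP25 (by -2.02, -2.01 and -1.24; adjusted p = 0.0149 to 0.0348, limma), 2 genes higher and 3 lower of 20 against 1.55% of all genes each way. In edgeR 1 of the 20 passed, and without any 1 control clone no gene passed in limma.

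**Figure D4:**
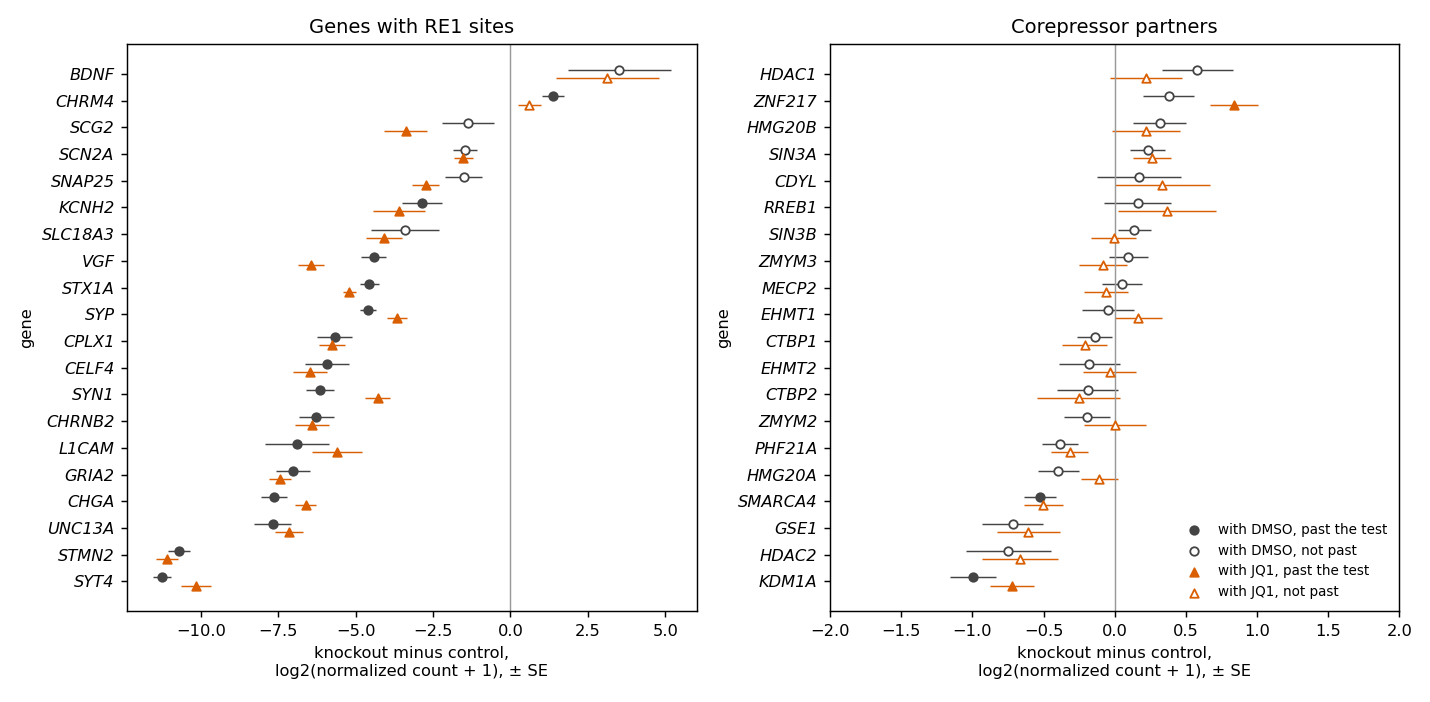
Knockout minus control difference, log2(normalized count + 1) ± SE, of 20 RE1 genes (left) and 20 corepressor partners (right) with DMSO (circles) and JQ1 (triangles); filled symbols passed the test. STMN2 and SYT4 lie lowest among RE1 genes, and among partners KDM1A lies lowest, with -0.997 with DMSO and -0.72 with JQ1.

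The partners that RCOR proteins, REST and INSM1 recruit were examined as a list of 20. KDM1A and SMARCA4 were lower in knockout clones with DMSO (2 of 20, against 6.23% of all genes), and the median log2 fold change was -0.10, beside 0.01 over all genes. KDM1A, the demethylase held by RCOR proteins and bound by the SNAG stretch of INSM1, fell from 12393 ± 888 to 6261 ± 1049 (log2 change of -0.997, SE 0.16, adjusted p = 0.0104, limma). On the FPKM scale it exceeded any RCOR gene, with 299 ± 25.6 FPKM in control and 149.6 ± 22.3 FPKM in knockout clones. SMARCA4, a remodelling ATPase, fell from 4493 ± 287 to 3120.4 ± 75.4 (log2 change of -0.52, SE 0.11, adjusted p = 0.0275, limma). HDAC1 (0.58), HDAC2 (-0.75) and GSE1 (-0.72) did not pass. Under JQ1, KDM1A was lower (-0.72, adjusted p = 0.0288) and ZNF217, a zinc finger partner, higher (0.84, adjusted p = 0.0221, limma) in knockout than in control clones. Both calls were lost without the library that stood apart, where the directions were the same. KDM1A then stood at 8765 ± 2047 against 13013 ± 997 in control clones, and ZNF217 at 987 ± 288 against 596 ± 36.3. Within a genotype, 3 of the 20 partners rose and 7 fell with JQ1 in control clones (against 23% and 24.9% of all genes), and 4 rose and 8 fell in knockout clones (against 23.9% and 25.7%), shares not far from those of all genes. ZMYM3 and GSE1, both found in KDM1A complexes, fell in both genotypes (log2 fold changes -0.57 and -0.56 in control and -0.75 and -0.45 in knockout clones). KDM1A rose in knockout clones with JQ1 (0.34, adjusted p = 0.00181, limma). In the test of a difference in response, 0 of 20 partners passed in limma (4 at an unadjusted p under 0.05) and 0 in edgeR, against 2 in DESeq2.

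Genes that act on REST itself were examined as a list of 8. SRRM4, a splicing factor that makes neurons splice REST to a truncated form, fell from 1371 ± 310 to 25 ± 30.5 with DMSO (log2 change of -6.85, SE 1.03, adjusted p = 0.00812, limma) and stood at 1687 ± 283 and 4.95 ± 6.13 with JQ1. Its relative SRRM3 stood at 187 ± 39.7 and 67.8 ± 58.2 with DMSO, which did not pass (adjusted p = 0.151), and was lower with JQ1 at 8.18 ± 8.04 against 244 ± 39.5 (log2 change of -5.66, adjusted p = 0.00569, limma). Both responded to JQ1 differently in the 2 genotypes, SRRM4 by -1.999 and SRRM3 by -3.73 (adjusted p = 0.0240 and 0.0394, limma), calls that were not made in edgeR or, in limma, without any 1 control clone. CTDSP1, a phosphatase that stabilises REST, was higher in knockout than in control clones under JQ1, at 668 ± 155 against 316 ± 51.1 (log2 change of 1.01, adjusted p = 0.0380, limma). That call was lost without the library that stood apart, where the knockout level was 596 ± 247. JQ1 itself lowered CTDSP1 in control clones (-0.54, adjusted p = 0.00267, limma). The ligase subunits BTRC and FBXW11, which mark REST for turnover, did not pass between genotypes with DMSO (-0.10 and -0.22).

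Relatives of INSM1 that carry a SNAG stretch were tested for 6 of 9 genes, and 3 were lower in knockout clones with DMSO (against 6.23% of all genes), with a median of -2.72 beside 0.01 over all genes. SCRT1 fell from 180 ± 23.8 to 1.65 ± 1.29 (log2 change of -6.56) and INSM2 from 32.9 ± 6.97 to 0.718 ± 0.0773 (log2 change of -4.41). SCRT2 stood at 168 ± 59.0 in control clones and had no read in knockout clones. The same 3 genes were lower with JQ1. GFI1 stood at 125 ± 42.0 and 58.8 ± 7.94 with DMSO, which did not pass (adjusted p = 0.0976, limma). SNAI2 lay the other way, at 1.73 ± 2.72 and 113 ± 151, and did not pass either (log2 change of 4.44, adjusted p = 0.105, limma). Of 4 genes described as repressed by INSM1 or MYT1L, 3 were tested with DMSO, and INS was not. Higher in knockout clones were 2 of 3 (against 6.32% of all genes) and lower was 1 of 3 (against 6.23%). The lower gene was NEUROD1, the knocked-out gene, so its call follows from the design. YAP1, a coactivator of the Hippo pathway, rose from 0.217 ± 0.376 to 81.5 ± 76.0 (log2 change of 5.61, SE 0.86, adjusted p = 0.00853, limma), at 164 in clone 12, 65.3 in clone 15 and 14.9 in clone 2-1. HES1, an effector of Notch, rose from 3.14 ± 2.92 to 126 ± 45.6 (log2 change of 5.28, SE 0.74, adjusted p = 0.00649, limma). Of the helix-loop-helix factors described upstream of INSM1 or the MYT family, 4 were tested. NEUROD1 (the knocked-out gene), NEUROD2 and NEUROD4 were lower in knockout than in control clones with either treatment. That is 3 of 4, against 6.23% of all genes with DMSO and 5.59% with JQ1. NEUROG2 stood at 73.9 ± 18.7 and 40.9 ± 6.52 with DMSO and did not pass (adjusted p = 0.132, limma).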

How the data were processed

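Messenger RNA of 6 H446 clones was sequenced from stranded TruSeq libraries, per the labels' protocols. The submitters' processing notes name cutadapt, STAR, RSEM and hg19. The authors' normalized counts (19014 genes) are a signal, gene counts scaled by 1 factor for each library, and 100% of values in each column were whole multiples of its step (tolerance 1e-06), which gave back whole reads (median 16302452 per library; in 2 columns the step is close to 1). The authors' deposited FPKM values are scaled by gene length and library size.

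A gene entered the tests where 9 or more libraries held 10 or more normalized counts. A listed gene whose name stood on more than 1 row was left out of its list. On log2(normalized count + 1), limma 3.58.1 was run under R 4.3.3 (prior trend, two-sided, Benjamini-Hochberg over 15819 genes, threshold 0.05). The scale understates changes of low genes. For genotype, 3 clone means stood against 3. For JQ1, the response of every clone was the unit, and 6 clones shared 1 spread. Replicate libraries share a clone, so p-values describe these clones. Named genes were the 8 repressors, NEUROD1, the 3 nearest genes of 6 repressors, and for each list up to 4 genes past the threshold or 2 of highest mean; SYP, NCAM1, CHRM4, BDNF, SLC18A3, HDAC1, HDAC2, BTRC, FBXW11, GFI1, INSM2, SNAI2 and NEUROG2 were named after their values were seen. Members and lists were chosen with earlier results of these data known. A further 12 lung and blood markers and markers of this cancer were examined; 1 of the latter is not reported here. Chromosomes were taken from GENCODE and promoters from RefSeq, both on GRCh38.

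Alternatives were pseudocounts 0.5 and 8, no filter or a filter of 50, equal totals, TMM, FPKM (offset 0.1), no trend, whole reads added up within a clone and tested with DESeq2 1.42.0 or edgeR 4.0.16, single libraries, and leaving out clones, replicate numbers or 1 library. The limma tests of genotype with DMSO, JQ1 in control clones and the difference in response were run on simulated data. The other tests were not. Python 3.11.15 with matplotlib 3.10.9 made the figures.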

Additional observations from a re-analysis of the deposited data

Results flagged for a closer look

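4 gene and group combinations of 32 examined, each of 9 libraries, had 1 library far from the rest by Dixon's ratio. Chance gives about 1 in 20 for independent normal values. The libraries here come from 3 clones and some groups are almost all 0, so that rate does not apply to them. ST18 in knockout clones with DMSO had no read and could not be flagged. ST18 stood at 35.51 in replicate 1 of knockout clone 12 with JQ1, while the other 8 knockout libraries with JQ1 held none. RCOR1 in the same library stood at 1632, below the next lowest of 3186, and MYT1L there stood at 1.691 (3 reads), above the next highest of 0.8506. That library also had the high sum over lung and blood markers. The part of RNA from other cells, if any, in these values was not tested. MYT1L stood at 2.16 (2 reads) in knockout clone 12 with DMSO, replicate 3, and at 0 in the other 8 knockout libraries with DMSO.

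The response of REST to JQ1 differed between genotypes by 0.833 on the log2 scale (limma, adjusted p = 0.0257), with all 3 control clones lower with JQ1 and 2 of 3 knockout clones higher. The call was lost in 8 of 22 alternatives, among them leaving out any 1 control clone.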

How the results depend on the processing

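The number of genes past the threshold for genotype was 1985 with DMSO and 1893 with JQ1. It was 3327 and 3054 in DESeq2, 7856 and 6803 with single libraries as replicates, and 7465 and 6503 with a replicate block for the number. Over 198 pairs from all clones and treatments, same-numbered libraries had a median r of 0.01 (from -0.22 to 0.29). Pairs with other numbers had a median r of -0.003 (from -0.26 to 0.20). Most of these pairs join different clones, and DMSO and JQ1 libraries of 1 clone were not examined apart. Pairing by number within a clone was thus not tested, and the block is shown for its effect only. Leaving out 1 clone or replicate number gave 906 to 2033 genes with DMSO and 760 to 1743 with JQ1, both lowest without control clone 10, with at most 1216 and 1095 without any 1 control clone. For JQ1 in control clones (7572 genes) the range was 4945, without control clone 10, to 8966.

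For the difference in response (490 genes, 1 of the 8 repressors), the numbers were 211 genes and 0 repressors on the FPKM scale, 93 genes without a trend, 12 genes and 0 repressors in edgeR, 1046 genes in DESeq2, 4503 genes and 6 repressors with single libraries, 4476 and 6 with the replicate block, 3 repressors with a pseudocount of 8, and 1164 genes and 3 repressors without knockout clone 12 JQ1 replicate 1. Leaving out 1 clone or replicate number gave 0 to 1213 genes and 0 to 4 repressors, with 0 genes in limma without any 1 control clone (2385 to 2627 at an unadjusted p under 0.05, with 3 to 6 repressors). Repressors past the threshold for JQ1 in knockout clones were 2, against 4 in edgeR, with single libraries, with the replicate block and without knockout clone 12. The edgeR calls include ST18 as higher (log2 change of 6.95, adjusted p = 0.00405, edgeR). Its only reads in knockout clones were the 63 in the library that stood apart. Among control clones 4 rather than 7 differed on the FPKM scale.

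Some values near 0 changed sign without passing the test. RCOR3 with JQ1 did so on the FPKM scale (-0.031 in control and -0.095 in knockout clones). INSM1 did so in control clones (-0.17 to 0.046 leaving out 1 clone or replicate number). MYT1L did so in knockout clones without the library that stood apart (-0.086) or over those omissions (-0.13 to 0.24). The difference in response of MYT1 did so with a pseudocount of 8 (0.063), FPKM (0.026) or over those omissions (-1.09 to 0.13). The RCOR3 share with JQ1 did so by library medians (-0.97 points) and without the library that stood apart (-1.54). Leaving out 1 replicate number, and never a clone, its range was -0.93 to 1.62. The cause was not tested. Genes at a few reads per library, such as MYT1 in knockout clones, are limited by depth.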
